A study of Saccharomyces cerevisiae with 9 samples.

Results

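The translation elongation factors of Saccharomyces cerevisiae were followed here in ribosome profiling data, in which the mRNA fragments protected by ribosomes are sequenced and counted. The members were the 10 genes TEF1, TEF2, EFB1, TEF4, CAM1, EFT1, EFT2, YEF3, HYP2 and ANB1, taken by name and not by any measured value, out of 6952 entries in the isoform table. TEF1 and TEF2 encode the same protein, as do EFT1 and EFT2, so the counts of each pair were summed and the 10 genes gave 8 units. All 8 units passed the filter on low counts in the main fit of each comparison below. The 9 libraries came from W303 cells grown in rich glucose medium (YEPD) at 30 °C, 3 from each strain. The pab1Δpbp1Δ strain lacked both PAB1 (pab1::kanMX) and PBP1 (pbp1::URA3), the pbp1Δ strain lacked PBP1 alone (pbp1::URA3), and the WT strain carried both genes. Pab1 binds the poly(A) tails of cytoplasmic mRNAs, and loss of Pbp1 lets cells survive without it, so pbp1Δ is the matched control for the loss of Pab1, whereas each comparison with WT also includes the loss of PBP1 and the marker gene URA3. Per the study's methods, the libraries of each mutant were separate isolates, all pab1Δpbp1Δ isolates descended from a single pbp1Δ isolate, and WT was a single strain prepared repeatedly as technical replicates, although the study elsewhere calls all replicates biological. Tests against WT therefore rest on a WT spread that may be technical. The pab1Δpbp1Δ cells also doubled more slowly than the others, and growth rate and genotype cannot be told apart in these libraries.

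Elongation is the cycle in which the ribosome adds amino acids. eEF1A (TEF1 and TEF2) delivers each aminoacyl-tRNA as a complex with GTP, and the eEF1B complex recharges eEF1A by exchanging GDP for GTP. In eEF1B the catalytic α subunit is encoded by EFB1 and the structural γ subunit by either TEF4 or CAM1. eEF2 (EFT1 and EFT2) is the GTPase that moves the tRNAs and mRNA along the ribosome, and eEF3 (YEF3) is an ATPase of fungi that helps to release tRNA from the exit site. eIF5A, first named as an initiation factor, binds ribosomes stalled at difficult peptide bonds, and yeast has a copy used in air (HYP2) and a copy used when oxygen is scarce (ANB1). A footprint count reflects both how much mRNA is present and how densely ribosomes occupy it, so less of an mRNA and fewer ribosomes on each mRNA cannot be told apart.

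Libraries held between 3149040 and 6903587 estimated counts, with the lowest depth in the third pab1Δpbp1Δ library. The deleted genes matched the labels. PAB1 had normalized counts of 0, 3.00 and 0 in pab1Δpbp1Δ, against 5488, 5473 and 4564 in pbp1Δ and 5286, 5644 and 5143 in WT. PBP1 had 0 in each pab1Δpbp1Δ library and 0, 2.97 and 0 in pbp1Δ, against 813, 792 and 778 in WT. Normalized counts are estimated counts divided by a size factor common to all 9 libraries.

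In the RefSeq annotation of the R64 assembly the genes lay on 9 chromosomes. TEF1 (YPR080W) was at chrXVI:700594-701970 and TEF2 (YBR118W) at chrII:477671-479047. The eEF1B genes were EFB1 (YAL003W) at chrI:142174-143160, TEF4 (YKL081W) at chrXI:282891-284455 and CAM1 (YPL048W) at chrXVI:464401-465648. EFT1 (YOR133W) was at chrXV:575098-577626, EFT2 (YDR385W) at chrIV:1243230-1245758 and YEF3 (YLR249W) at chrXII:636780-639914. HYP2 (YEL034W) was at chrV:85676-86149 and ANB1 (YJR047C) at chrX:524908-525381. These spans were taken from the annotation and not from the count tables. EFB1 and TEF4 were the only members with an unspliced entry in the isoform table, that is, the only members treated as intron-containing genes.

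Levels were compared between genes as FPKM, fragment counts scaled by transcript length and library depth. The effective length used was 785 bases for HYP2 against an annotated span of 474, and 3276 against 3135 for YEF3. FPKM is thus not a density over coding sequence alone, and the order of the units depends in part on this length. In pab1Δpbp1Δ the eEF1A pair averaged 18499 ± 1602 FPKM, the eEF2 pair 5973 ± 688, YEF3 3694 ± 431, HYP2 3081 ± 415, EFB1 1382 ± 314, TEF4 1315 ± 188, CAM1 360 ± 65.5 and ANB1 8.96 ± 1.71 (SD, n = 3). In pbp1Δ the order was the eEF1A pair at 15498 ± 335 FPKM, the eEF2 pair at 6511 ± 942, HYP2 at 3807 ± 354, YEF3 at 3269 ± 345, EFB1 at 2641 ± 636, TEF4 at 1881 ± 118, CAM1 at 301 ± 62.4 and ANB1 at 11.5 ± 3.77 (SD, n = 3). In WT it was the eEF1A pair at 14979 ± 725 FPKM, the eEF2 pair at 7378 ± 795, HYP2 at 3601 ± 143, YEF3 at 3600 ± 122, EFB1 at 2567 ± 281, TEF4 at 1781 ± 180, CAM1 at 280 ± 20.6 and ANB1 at 5.62 ± 1.59 (SD, n = 3). The eEF1A pair thus had the highest FPKM of the units in each strain. Neighbours whose libraries overlapped were EFB1 and TEF4 in pab1Δpbp1Δ, HYP2 and YEF3 as well as YEF3 and EFB1 in pbp1Δ, and HYP2 and YEF3 in WT. Among all entries ranked by mean FPKM, EFB1 stood at rank 100 in pab1Δpbp1Δ, against rank 51 in pbp1Δ and rank 55 in WT.

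The loss of Pab1 was examined first by comparing pab1Δpbp1Δ with pbp1Δ. Footprints on EFB1 and TEF4, the catalytic subunit and the more abundant γ subunit of eEF1B, fell, while the other 6 units did not pass the threshold, a Benjamini-Hochberg adjusted p below 0.01 in DESeq2. No unit rose. The 2 units called of 8 stand beside 21.3% of the 5767 entries tested (10.2% lower and 11.1% higher), so the number of calls among the elongation factors was near that of the table as a whole, and what follows concerns which units they were. The median log2 fold change was -0.33 over the 8 units and 0.03 over all entries tested. All 3 libraries of each strain were separated from all 3 of the other for 4 units, EFB1, TEF4 and HYP2 below and the eEF1A pair above, beside 46% of the entries tested. The pbp1Δ strain and WT were then compared to see what the loss of PBP1 did by itself. None of the 8 units was called, beside 1.18% of 5754 entries (0.852% lower and 0.33% higher). Of the 8, only ANB1 had an unadjusted p under 0.05 there. edgeR's quasi-likelihood test also called none, but it called only 1 of the 5202 entries it tested, so this says little about the units. Between pab1Δpbp1Δ and WT, EFB1 and TEF4 fell again and no other unit was called, beside 30.9% of 5875 entries (15.3% lower and 15.7% higher). Both comparisons of pab1Δpbp1Δ share those libraries and are not independent of each other.

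**Figure D1:**
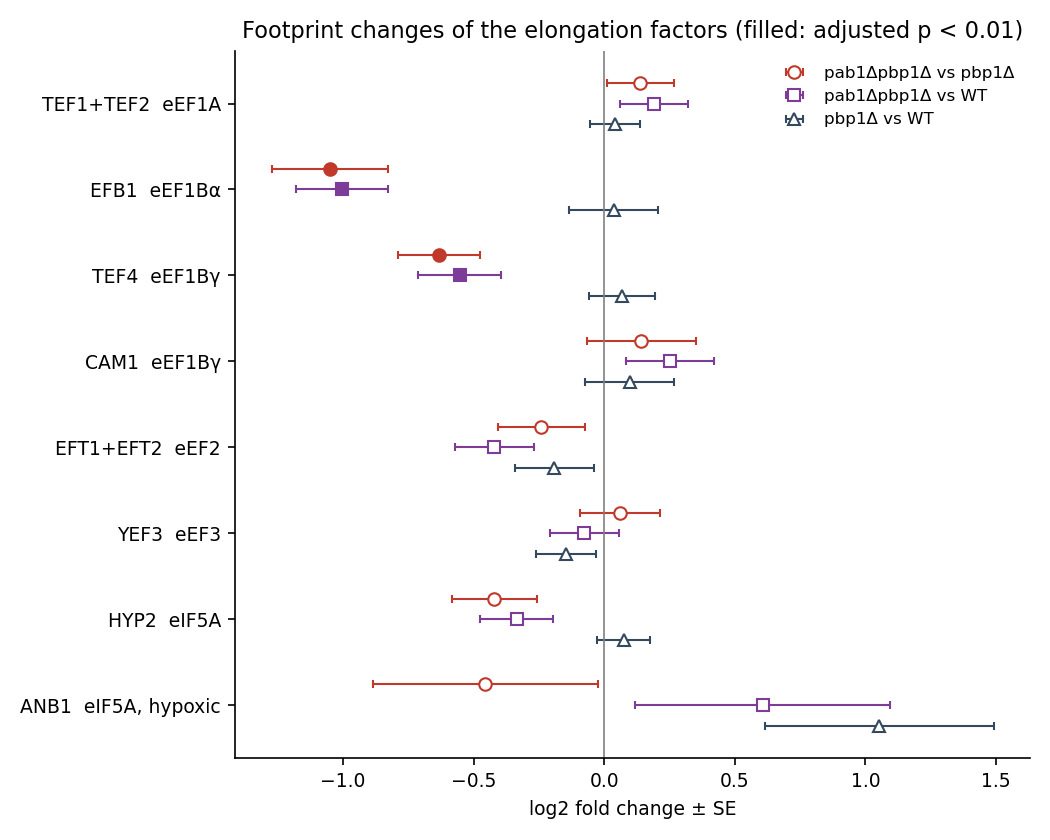
Log2 fold change of normalized footprint counts for each unit (x axis, with its standard error from DESeq2) in the 3 comparisons, with filled symbols where the adjusted p was below 0.01. EFB1 and TEF4 lie left of 0 with filled symbols in both comparisons of pab1Δpbp1Δ, and no unit has a filled symbol in pbp1Δ against WT.

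EFB1, which encodes the nucleotide exchange subunit that recharges eEF1A, had normalized counts of 4793, 5613 and 7458 in pab1Δpbp1Δ, against 15601, 10298 and 10718 in pbp1Δ and 12992, 11447 and 11185 in WT. Every pab1Δpbp1Δ library lay below every library of the other strains, and the first pbp1Δ library was the highest of the 9. The log2 fold change was -1.05 (SE 0.22, adjusted p = 2.8e-05) against pbp1Δ, a change of -51.7% with a 95% interval of -64.3% to -34.7%. Against WT it was -1.0 (SE 0.18, adjusted p = 1.46e-07). The pbp1Δ strain differed from WT by 0.04 on the log2 scale (SE 0.17, adjusted p = 0.971), with a 95% interval of -0.30 to 0.37. The EFB1 call against pbp1Δ was made in 17 of 19 alternatives, with adjusted p from 1.95e-06 to 0.0211. It was lost with limma on log2(FPKM + 1) (adjusted p = 0.0211) and on log2(FPKM + 0.1) (0.0206). The call against WT held in all 19. Without the first pbp1Δ library the EFB1 log2 fold change against pbp1Δ was -0.83.

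TEF4, the γ subunit gene with the higher FPKM in these cells, had 8399, 10911 and 10828 normalized counts in pab1Δpbp1Δ, against 14438, 15511 and 16295 in pbp1Δ and 13247, 13836 and 16966 in WT. The pab1Δpbp1Δ libraries again lay below all others. Its log2 fold change was -0.63 (SE 0.16, adjusted p = 0.000389) against pbp1Δ and -0.55 (SE 0.16, adjusted p = 0.00219) against WT. Between pbp1Δ and WT it was 0.07 (SE 0.12, adjusted p = 0.921). TEF4 was close to the threshold under other treatments of the same counts. Against pbp1Δ it was called in 15 of 19 alternatives and missed with edgeR (adjusted p = 0.0114), with limma on log2(FPKM + 1) (0.0404) and log2(FPKM + 0.1) (0.0433) and without the third pbp1Δ library (0.0134), and against WT it was called in 13 of 19. The call against WT was missed with edgeR (adjusted p = 0.0148), with total counts as size factors (0.0138), with limma (0.0476 and 0.0504 for the 2 pseudocounts) and without the second (0.0119) or the third (0.0427) WT library.

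CAM1 encodes the alternative γ subunit. It had 2769, 3119 and 2165 normalized counts in pab1Δpbp1Δ, against 1833, 2677 and 2720 in pbp1Δ and 2010, 2351 and 2386 in WT, and the groups overlapped. It differed by a log2 fold change of 0.14 (SE 0.21, adjusted p = 0.666) against pbp1Δ, with a 95% interval of -0.27 to 0.55, and 0.25 (SE 0.17, adjusted p = 0.234) against WT. Without the first pbp1Δ library the value against pbp1Δ was -0.02.

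**Figure D2:**
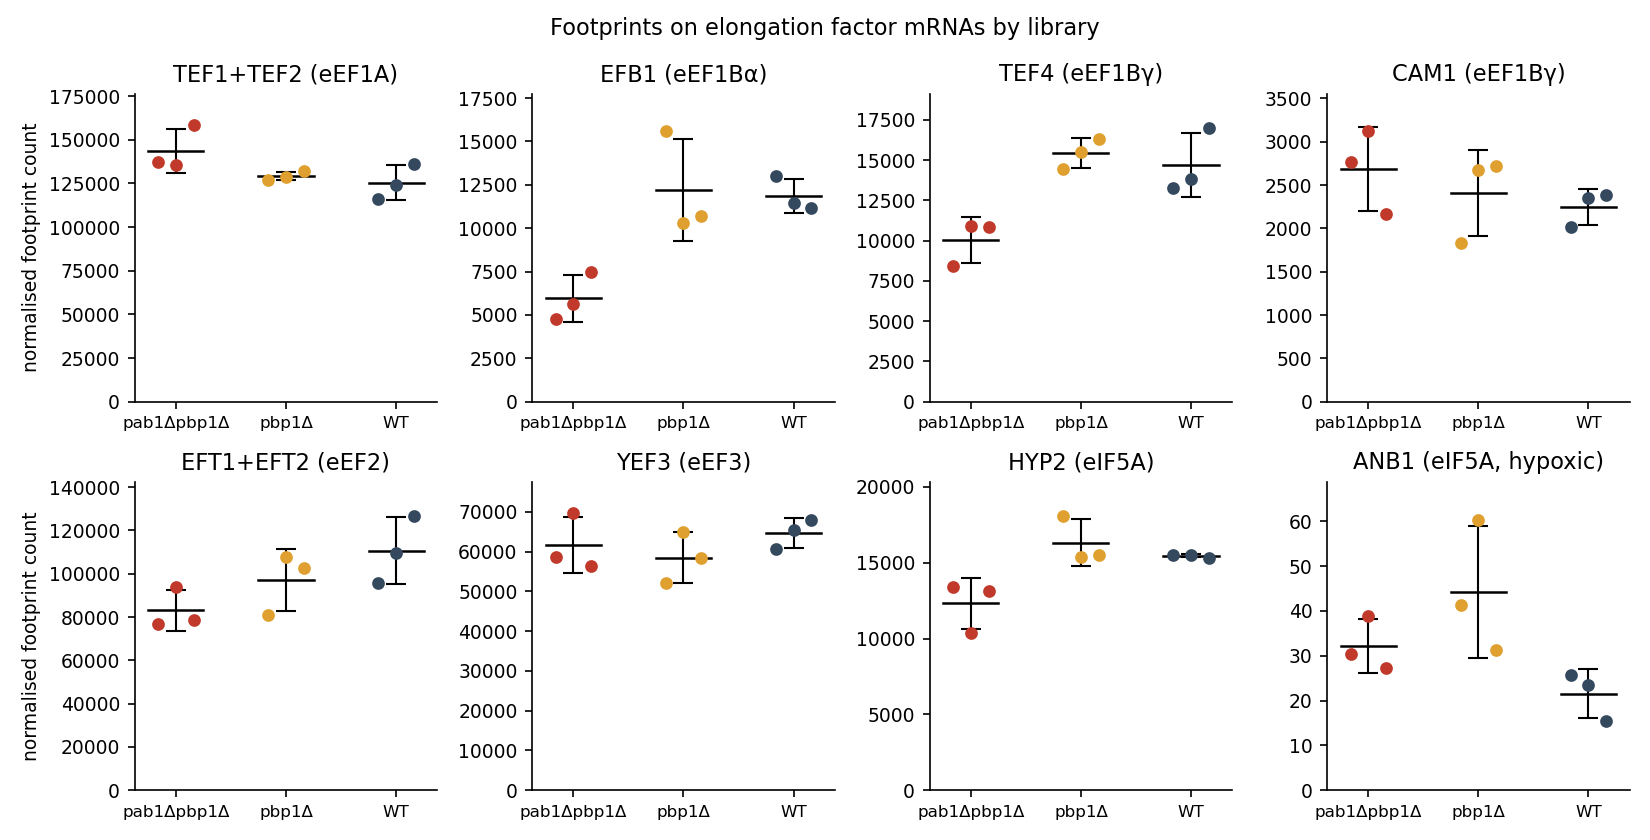
Normalized footprint counts (y axis, from 0, scale differs between panels) of each unit in the 3 libraries of pab1Δpbp1Δ, pbp1Δ and WT; points are libraries in the order of their replicate numbers, horizontal lines are means and bars are SD. The pab1Δpbp1Δ points of EFB1, TEF4 and HYP2 lie below all others, whereas those of CAM1 and YEF3 overlap the other strains.

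Since EFB1 and TEF4 are the members with introns, their unspliced entries were examined. These entries hold the sequenced fragments assigned to the unspliced form, and whether a ribosome protected each of them was not tested. They do not measure how much unspliced RNA was present. The unspliced EFB1 entry had estimated counts of 6.29, 37.4 and 6.39 in pab1Δpbp1Δ, against 16.2, 32.4 and 25.7 in pbp1Δ and 12.6, 37.7 and 32.0 in WT. As a share of all EFB1 counts this was 0.121% to 0.487% in pab1Δpbp1Δ, 0.0903% to 0.259% in pbp1Δ and 0.108% to 0.347% in WT. The 95% Wilson interval, which covers counting error alone, was 0.35% to 0.664% for the highest of these and 0.055% to 0.145% for the lowest. The unspliced TEF4 entry had 0, 16.8 and 11.2 counts in pab1Δpbp1Δ, against 0, 0 and 11.1 in pbp1Δ and 0, 0 and 22.4 in WT. The strains overlapped for both genes. The log2 fold change of the unspliced EFB1 entry was -0.60 (SE 0.70, adjusted p = 0.572) against pbp1Δ, and that of the TEF4 entry had a wide error (log2 fold change 1.52, SE 3.15). Spliced entries of the other intron-containing genes, ribosomal protein genes left out, were counted beside them. Of 168 tested against pbp1Δ, 12 were lower (7.14%) and 28 higher (16.7%), with a median log2 fold change of 0.14.

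eEF1A was the most footprinted unit. The summed TEF1 and TEF2 counts were 137050, 135775 and 158299 in pab1Δpbp1Δ, against 127132, 128788 and 131885 in pbp1Δ and 116238, 123924 and 136365 in WT. The pab1Δpbp1Δ libraries were above all pbp1Δ libraries but overlapped WT. The log2 fold change was 0.14 (SE 0.13, adjusted p = 0.458) against pbp1Δ, with a 95% interval of -0.12 to 0.39, and 0.19 (SE 0.13, adjusted p = 0.245) against WT. Between pbp1Δ and WT it was 0.04 (SE 0.09, adjusted p = 0.946).

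Counts of the separate copies depend on how reads common to near-identical genes were divided, and their values are uncertain to that extent. TEF1 had 74824, 73533 and 97449 normalized counts in pab1Δpbp1Δ, against 73110, 60364 and 61506 in pbp1Δ and 56404, 64850 and 68320 in WT. Its log2 fold change was 0.32 (SE 0.17, adjusted p = 0.144) against pbp1Δ and 0.37 (SE 0.15, adjusted p = 0.0443) against WT, neither of which passed. TEF2 had 62226, 62242 and 60851 counts in pab1Δpbp1Δ, within the ranges of 54023 to 70378 in pbp1Δ and 59074 to 68045 in WT.

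For eEF2, the translocase, the summed EFT1 and EFT2 counts were 76848, 93819 and 78447 in pab1Δpbp1Δ, against 80956, 107871 and 102589 in pbp1Δ and 95829, 109548 and 126796 in WT. The means of the strains were in the order pab1Δpbp1Δ, pbp1Δ and WT, low to high, and only pab1Δpbp1Δ and WT were fully separated. The log2 fold change was -0.24 (SE 0.17, adjusted p = 0.283) against pbp1Δ and -0.42 (SE 0.15, adjusted p = 0.0164) against WT, and -0.19 (SE 0.15, adjusted p = 0.689) between pbp1Δ and WT. The comparison with WT fell short of the threshold, but it passed when the second pab1Δpbp1Δ library (adjusted p = 0.00247) or the first WT library (0.00823) was left out.

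The copies of eEF2 were then taken apart. EFT1 had 52351, 54884 and 41887 normalized counts in pab1Δpbp1Δ, against 65113, 79086 and 78290 in pbp1Δ and 65931, 78452 and 89897 in WT. Every pab1Δpbp1Δ library was below all others. EFT1 fell, with a log2 fold change of -0.59 (SE 0.16, adjusted p = 0.00182) against pbp1Δ and -0.66 (SE 0.16, adjusted p = 0.000302) against WT. When the copies were kept apart, 21.3% of entries were called against pbp1Δ, 30.9% against WT, and 1.21% between pbp1Δ and WT. EFT1 was called against pbp1Δ in 4 of 8 alternatives. It was lost with edgeR (adjusted p = 0.0131), without the third pab1Δpbp1Δ library (0.0142) and without the second (0.0339) or the third (0.0335) pbp1Δ library. Against WT it was lost without the third WT library alone (adjusted p = 0.0128). EFT2 had 24496, 38934 and 36560 counts in pab1Δpbp1Δ, against 15843, 28785 and 24299 in pbp1Δ and 29898, 31096 and 36900 in WT. Its log2 fold change was 0.52 (SE 0.25, adjusted p = 0.0914) against pbp1Δ, 0.02 (SE 0.19, adjusted p = 0.934) against WT, and -0.51 (SE 0.20, adjusted p = 0.196) between pbp1Δ and WT. The first pbp1Δ library was the lowest of the 9 for EFT2.

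YEF3, the ATPase that only fungi require for elongation, had 58681, 69570 and 56404 normalized counts in pab1Δpbp1Δ, against 52052, 64844 and 58500 in pbp1Δ and 60568, 65440 and 67893 in WT. The strains overlapped in each comparison. Its log2 fold change was 0.06 (SE 0.15, adjusted p = 0.815) against pbp1Δ, with a 95% interval of -0.24 to 0.36, and -0.08 (SE 0.13, adjusted p = 0.688) against WT. The sign against WT turned with total counts as size factors (0.04) and with limma (0.03).

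HYP2, the aerobic eIF5A gene, had 13426, 10364 and 13170 normalized counts in pab1Δpbp1Δ, against 18095, 15402 and 15484 in pbp1Δ and 15539, 15535 and 15349 in WT. Although all pab1Δpbp1Δ libraries were below all others, the difference did not pass the threshold. Its log2 fold change was -0.42 (SE 0.16, adjusted p = 0.033) against pbp1Δ and -0.34 (SE 0.14, adjusted p = 0.0424) against WT. Against pbp1Δ it passed with all 9 libraries in the fit (adjusted p = 0.00648). ANB1, the hypoxic copy, was close to the limit of what these depths could measure. It had 30.3, 38.8 and 27.2 normalized counts in pab1Δpbp1Δ, against 41.4, 60.3 and 31.3 in pbp1Δ and 25.8, 23.5 and 15.3 in WT. Both mutant strains lay above all WT libraries, beside 23.1% of entries separated between pbp1Δ and WT and 55.1% between pab1Δpbp1Δ and WT. For ANB1 the log2 fold change was 1.05 (SE 0.44, adjusted p = 0.235) in pbp1Δ against WT, 0.61 (SE 0.49, adjusted p = 0.332) in pab1Δpbp1Δ against WT and -0.46 (SE 0.43, adjusted p = 0.463) in pab1Δpbp1Δ against pbp1Δ. ANB1 and HYP2 are close in sequence, and some HYP2 fragments may have been assigned to ANB1.

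The balance within each pair was then measured as a share of the pair's counts, with exact two-sided permutation tests over the libraries. With 3 libraries against 3 the smallest p possible is 0.1, and 12 comparisons were made, so no share could pass 0.05. EFT2 made up 31.9%, 41.5% and 46.6% of the eEF2 counts in pab1Δpbp1Δ, against 19.6%, 26.7% and 23.7% in pbp1Δ and 31.2%, 28.4% and 29.1% in WT. The 3 strains did not overlap for this share, with pbp1Δ lowest and pab1Δpbp1Δ highest (exact permutation p = 0.1 in each comparison, adjusted p = 0.15). CAM1 made up 24.8%, 22.2% and 16.7% of the γ subunit counts in pab1Δpbp1Δ, against 11.3%, 14.7% and 14.3% in pbp1Δ and 13.2%, 14.5% and 12.3% in WT. The CAM1 share was thus higher in every pab1Δpbp1Δ library than in any other, by 7.80 percentage points on average against pbp1Δ and 7.89 against WT (exact permutation p = 0.1, adjusted p = 0.15 for both). TEF1 made up 56.8 ± 4.15% of the eEF1A counts in pab1Δpbp1Δ, 50.3 ± 6.21% in pbp1Δ and 50.3 ± 1.91% in WT (SD, n = 3). In pbp1Δ the TEF1 share was 57.5% in the first library, against 46.9% and 46.6% in the second and the third. ANB1 made up 0.268 ± 0.0913% of the eIF5A counts in pab1Δpbp1Δ, 0.273 ± 0.102% in pbp1Δ and 0.139 ± 0.0345% in WT (SD, n = 3). The 95% Wilson intervals of single libraries reached at most 0.815 percentage points to either side, for CAM1. They cover counting error alone and not the division of reads common to both copies, so the error of the copy shares may be larger.

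**Figure D3:**
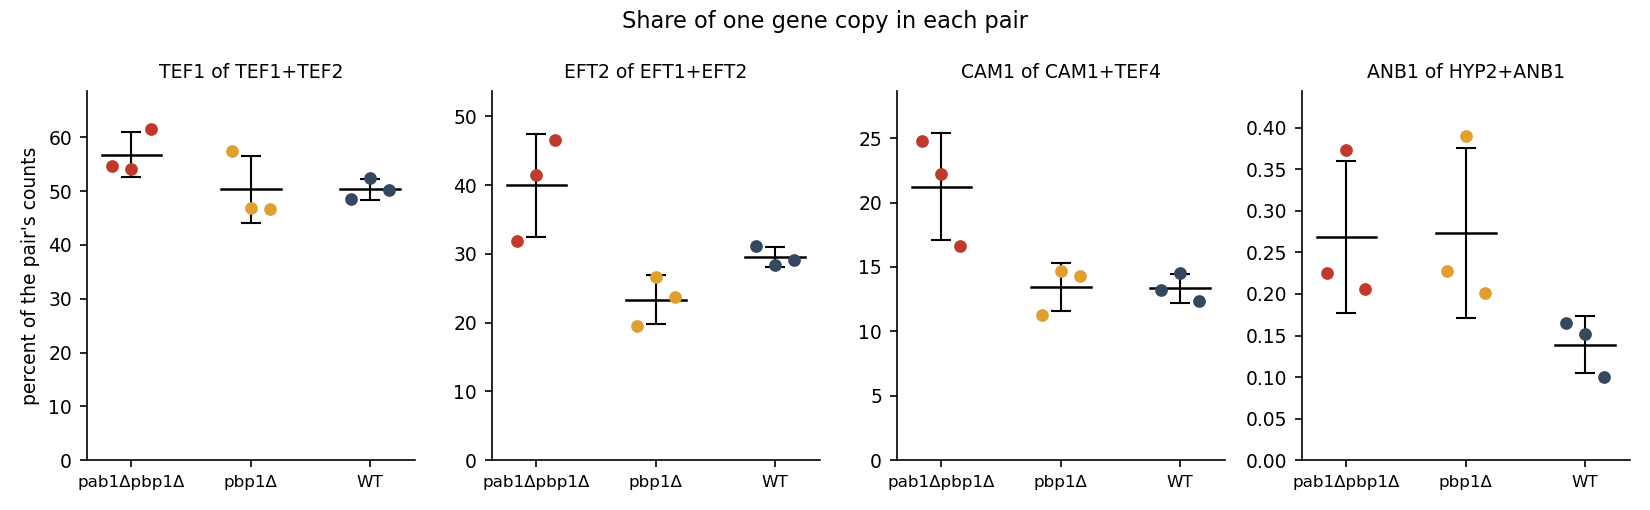
Percent of each pair's estimated counts (y axis, from 0) that belongs to the named copy, in the 3 libraries of pab1Δpbp1Δ, pbp1Δ and WT, with mean (line) and SD (bar). The EFT2 share is highest in pab1Δpbp1Δ (31.9% to 46.6%) and lowest in pbp1Δ (19.6% to 26.7%), and the CAM1 share is higher in pab1Δpbp1Δ than in the other strains.

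Because eEF1A is the substrate of eEF1B, each unit was also set against eEF1A within the same library, which removes the scaling between libraries. EFB1 had 0.0631, 0.0746 and 0.0848 FPKM for each FPKM of eEF1A in pab1Δpbp1Δ, against 0.221, 0.144 and 0.147 in pbp1Δ and 0.202, 0.167 and 0.148 in WT. The difference in the log2 ratio was -1.18 against pbp1Δ and -1.21 against WT (exact permutation p = 0.1 for each, the smallest possible, and adjusted p = 0.263 over 21 comparisons). TEF4 had 0.0623, 0.0818 and 0.0695 FPKM for each FPKM of eEF1A in pab1Δpbp1Δ, against 0.116, 0.123 and 0.126 in pbp1Δ and 0.116, 0.114 and 0.127 in WT, a difference in the log2 ratio of -0.78 against pbp1Δ and -0.75 against WT. For HYP2 the log2 ratio was lower by a difference of -0.56 against pbp1Δ and -0.54 against WT. The pab1Δpbp1Δ libraries lay below all libraries of both other strains for EFB1, TEF4 and HYP2. For eEF2 the log2 ratio averaged -1.63 ± 0.24 in pab1Δpbp1Δ, -1.26 ± 0.20 in pbp1Δ and -1.03 ± 0.09 in WT (SD, n = 3), with pab1Δpbp1Δ fully below WT alone. The ANB1 ratio of every pbp1Δ library was above that of every WT library (difference in the log2 ratio 0.98, exact permutation p = 0.1, adjusted p = 0.263), the one ratio of the 7 units that separated these strains, and the ANB1 ratio of pab1Δpbp1Δ overlapped both. The ratios of YEF3 and CAM1 overlapped between the strains.

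**Figure D4:**
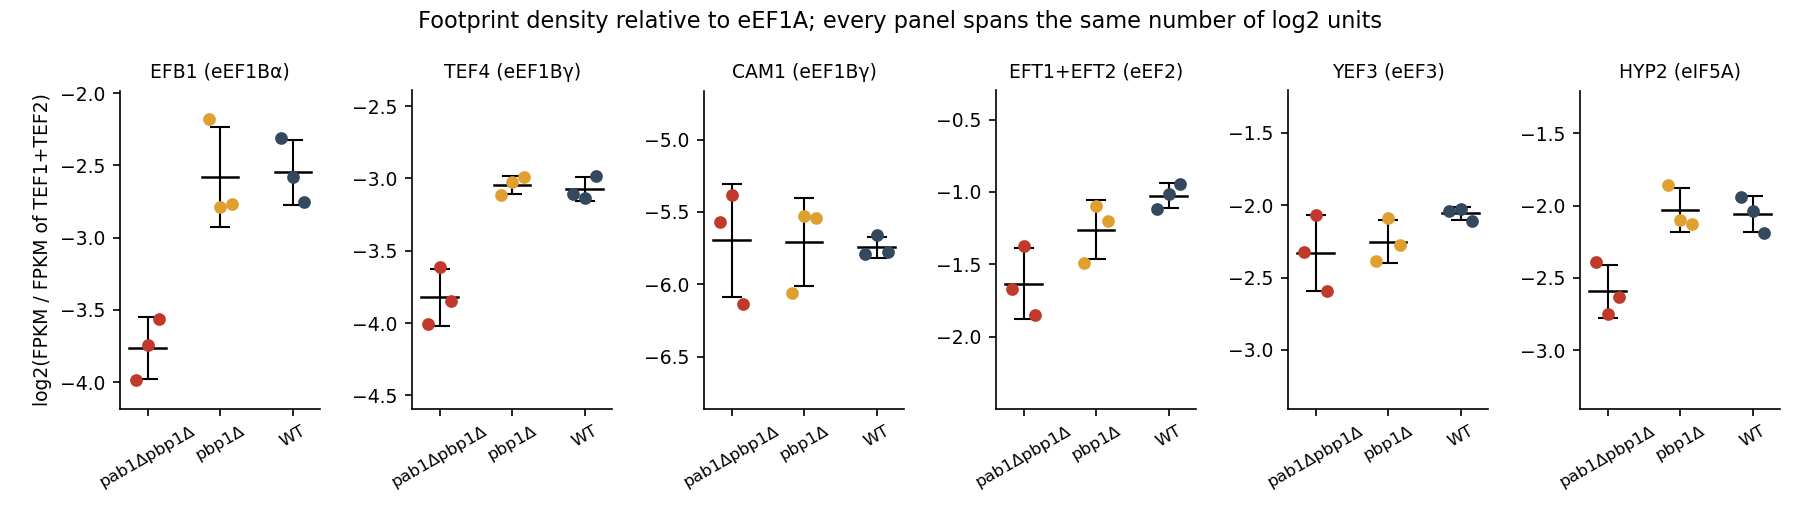
Log2 of the FPKM of 6 units over the summed FPKM of TEF1 and TEF2 (y axis, the same span of log2 units in each panel) in each library of pab1Δpbp1Δ, pbp1Δ and WT, with mean (line) and SD (bar). EFB1, TEF4 and HYP2 are lower relative to eEF1A in each pab1Δpbp1Δ library than in any other library, and CAM1 and YEF3 are not.

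The members together held 5.94%, 6.49% and 6.42% of a library's counts in pab1Δpbp1Δ, against 5.70%, 6.29% and 6.23% in pbp1Δ and 5.93%, 6.33% and 6.63% in WT. Counting error was at most 0.0271 percentage points to either side. The strains overlapped, with a difference of 0.21 percentage points between pab1Δpbp1Δ and pbp1Δ (exact permutation p = 0.5) and of -0.01 between pab1Δpbp1Δ and WT (exact permutation p = 1).

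The elongation factors are modified and folded by dedicated proteins, and 19 of these were examined as a list. Against pbp1Δ, 3 were lower and 2 higher in pab1Δpbp1Δ, 5 of 19 beside 21.3% of all entries, and the median log2 fold change was -0.44. Against WT, 4 were lower and 4 higher, 8 of 19 beside 30.9% of all entries, and the median was -0.28. None was called between pbp1Δ and WT with DESeq2 (3 had an unadjusted p below 0.05) or with edgeR, which called only 1 of 5202 entries there. ZPR1, which binds eEF1A and assists its folding, had 867, 769 and 683 normalized counts in pab1Δpbp1Δ, against 2136, 1860 and 1811 in pbp1Δ and 2429, 2389 and 2289 in WT. It fell by 1.34 on the log2 scale against pbp1Δ (SE 0.16, adjusted p = 1.74e-14) and fell by 1.62 against WT (SE 0.14, adjusted p = 1.69e-27). CHP1, a chaperone that binds eEF1A as it is made, rose in both comparisons. It had 1368, 1022 and 1056 counts in pab1Δpbp1Δ, against 795, 584 and 624 in pbp1Δ and 550, 597 and 497 in WT, with a log2 fold change of 0.77 (SE 0.20, adjusted p = 0.000747) against pbp1Δ and 1.06 (SE 0.17, adjusted p = 1.27e-08) against WT. Against pbp1Δ CHP1 missed the threshold with edgeR (adjusted p = 0.0125) and without the first pab1Δpbp1Δ library (0.0104) or the second (0.0223) or the third (0.0198) pbp1Δ library. AIM29, a partner of ZPR1 in that folding, rose against WT by 1.38 (SE 0.25, adjusted p = 3.66e-07) and had 0.89 (SE 0.30, adjusted p = 0.0117) against pbp1Δ.

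Hypusine, a modified lysine found in eIF5A, is made by DYS1 and then LIA1. LIA1 had 1405, 1458 and 1331 normalized counts in pab1Δpbp1Δ, against 2103, 2295 and 2260 in pbp1Δ and 2517, 2492 and 2494 in WT. It fell by 0.68 on the log2 scale against pbp1Δ (SE 0.13, adjusted p = 4.1e-06) and fell by 0.84 against WT (SE 0.12, adjusted p = 5.54e-11). DYS1, the enzyme of the first step, had 1484, 1320 and 1206 counts in pab1Δpbp1Δ, against 1204, 1190 and 1415 in pbp1Δ and 940, 1136 and 1215 in WT. For DYS1 the log2 fold change was 0.06 (SE 0.16, adjusted p = 0.814) against pbp1Δ and 0.28 (SE 0.16, adjusted p = 0.153) against WT.

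Diphthamide is a modified histidine of eEF2. Of 7 genes for its synthesis, 1 was called against pbp1Δ, beside 21.3% of all entries. This was DPH3, with 113, 119 and 136 normalized counts in pab1Δpbp1Δ and 218, 194 and 219 in pbp1Δ (log2 fold change -0.80, SE 0.22, adjusted p = 0.0016), and the median of the 7 was -0.51. The DPH3 call was lost when the first or second pab1Δpbp1Δ library or the first or the third pbp1Δ library was left out, with a highest adjusted p of 0.024. For 5 of the 7, every pab1Δpbp1Δ library lay below every pbp1Δ library, and for 0 above. Of all 5767 entries tested, 1314 were separated below and 1338 above. Against WT, DPH1 (-0.87, SE 0.24, adjusted p = 0.000972) and DPH6 (-0.72, SE 0.18, adjusted p = 0.000248) were lower and DPH5 was higher (0.51, SE 0.16, adjusted p = 0.00424), 3 of 7 beside 30.9% of all entries. The DPH1 call was lost without the second or the third WT library (highest adjusted p = 0.0199), and that of DPH5 with edgeR and without the second or the third pab1Δpbp1Δ library or the first or the second WT library (highest adjusted p = 0.0474). Of the 7 enzymes that methylate eEF1A or eEF2, 1 was called in each of these comparisons, EFM4, which acts on eEF1A. EFM4 was 1 of 7 in each, beside 21.3% of all entries against pbp1Δ and 30.9% against WT. It had 248, 328 and 238 counts in pab1Δpbp1Δ, against 166, 160 and 177 in pbp1Δ and 113, 143 and 145 in WT, with a log2 fold change of 0.69 (SE 0.22, adjusted p = 0.00808) against pbp1Δ and 1.02 (SE 0.23, adjusted p = 7.06e-05) against WT. The EFM4 call against pbp1Δ was made in 4 of 11 alternatives and missed the threshold in edgeR and when any library but the third pab1Δpbp1Δ library was left out (highest adjusted p = 0.0735), whereas that against WT was made in all 11.

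**Figure D5:**
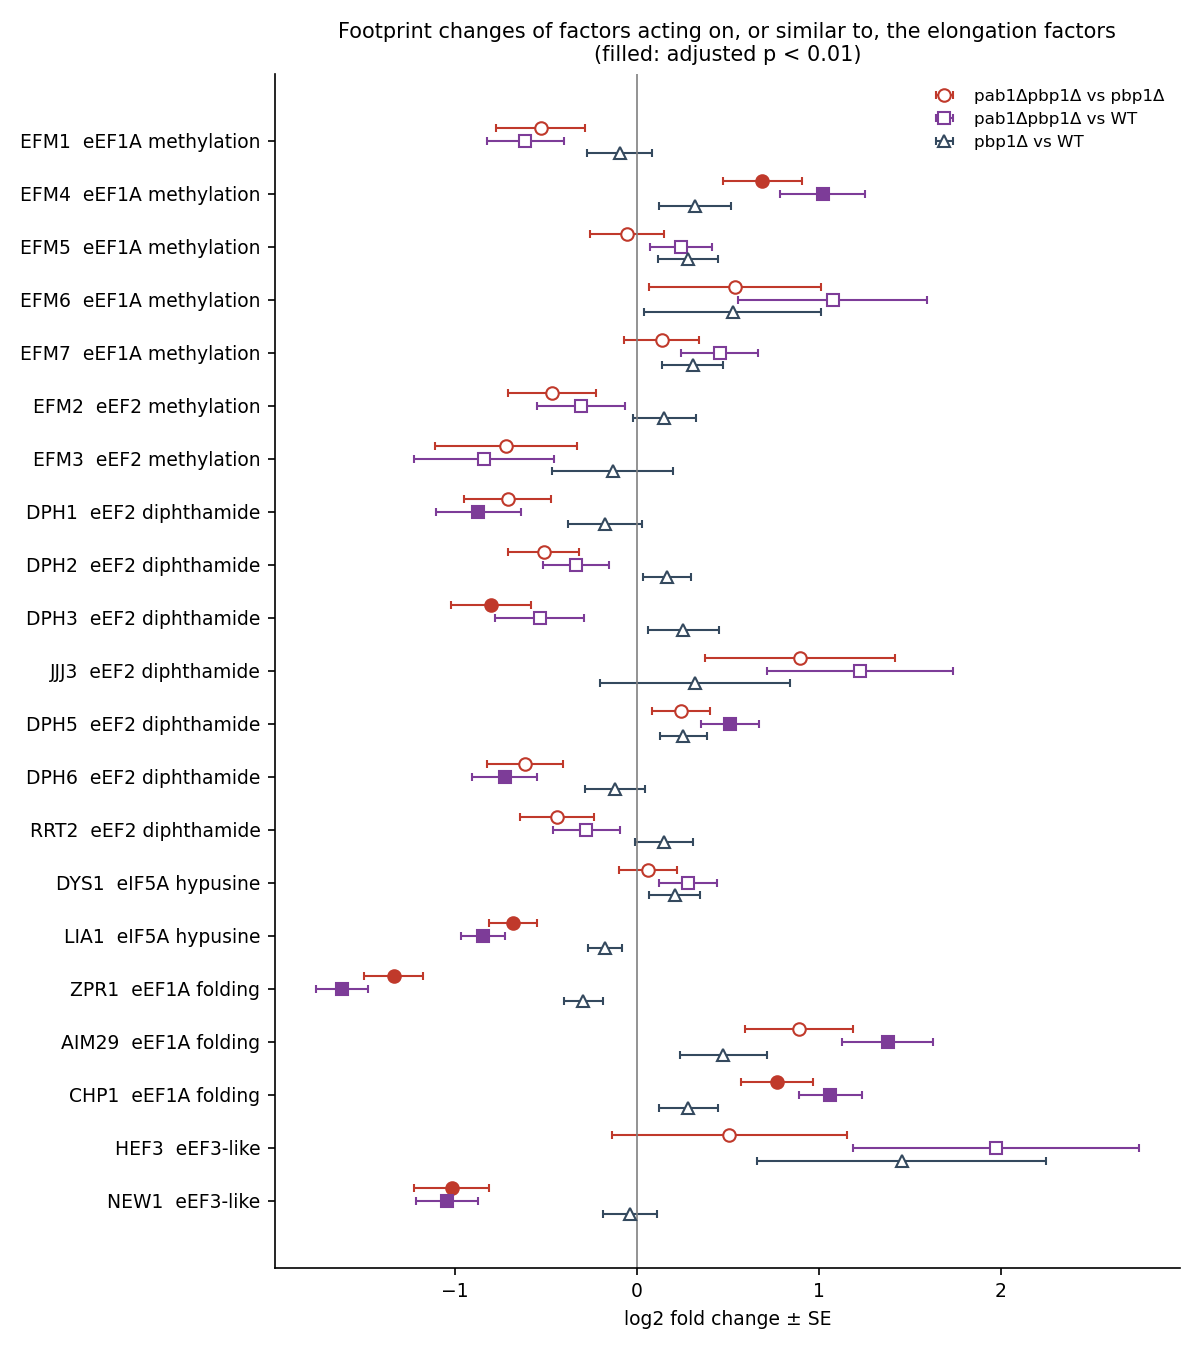
Log2 fold change with its standard error from DESeq2 (x axis) of 19 proteins that modify or fold the elongation factors and of 2 eEF3-like proteins, in the 3 comparisons, with filled symbols where the adjusted p was below 0.01. ZPR1, LIA1 and NEW1 lie left of 0 and EFM4 and CHP1 right of 0 with filled symbols in both comparisons of pab1Δpbp1Δ.

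Yeast has further proteins related to eEF3, of which 2 were examined. In each comparison of pab1Δpbp1Δ 1 of these 2 was called with DESeq2, beside 21.3% of all entries against pbp1Δ and 30.9% against WT. NEW1, a paralog that assists ribosomes near the end of some open reading frames, had 1902, 2540 and 1705 normalized counts in pab1Δpbp1Δ, against 3322, 4752 and 4245 in pbp1Δ and 3894, 4358 and 4379 in WT. It fell by 1.02 on the log2 scale against pbp1Δ (SE 0.20, adjusted p = 9.48e-06) and fell by 1.04 against WT (SE 0.17, adjusted p = 1.47e-08). HEF3, a second eEF3 gene that is little used under standard growth, had 15.0, 21.5 and 14.7 counts in pab1Δpbp1Δ, against 8.73, 18.3 and 8.58 in pbp1Δ and 3.34, 5.38 and 4.32 in WT. HEF3 had a log2 fold change of 0.51 (SE 0.65, adjusted p = 0.606) against pbp1Δ and 1.97 (SE 0.78, adjusted p = 0.0322) against WT, and edgeR called the difference from WT (adjusted p = 0.00671). HEF3 resembles YEF3 in sequence and YEF3 had far more footprints, so misassigned fragments may be included. Of the 3 mitochondrial counterparts, 1 was called in pab1Δpbp1Δ against WT, beside 30.9% of all entries. This was TUF1 (mitochondrial EF-Tu), which was lower (-0.60, SE 0.19, adjusted p = 0.00471), a call made in 6 of 11 alternatives. It was lost with edgeR (adjusted p = 0.0256), with total counts as size factors (0.0301) and when any WT library was left out (highest adjusted p = 0.048). MEF1 (mitochondrial EF-G) was the only gene of these lists called in pbp1Δ against WT, beside 1.18% of all entries. It had 270, 356 and 323 counts in pbp1Δ and 659, 584 and 663 in WT (-1.01, SE 0.15, adjusted p = 1.35e-07). With edgeR the MEF1 adjusted p was 0.0209.

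Since ANB1 is a hypoxic gene, 10 other genes tied to low oxygen were set beside it. They include ROX1, which encodes the repressor of hypoxic genes in aerated cells and is not itself a gene of low oxygen. Against pbp1Δ, 2 were lower and 2 higher in pab1Δpbp1Δ (4 of 10 beside 21.3% of all entries), and against WT 1 was lower and 2 higher (3 of 10 beside 30.9%). The median log2 fold change was -0.06 against pbp1Δ and 0.11 against WT, or -0.24 and 0.12 without ROX1, which was called in neither comparison. CYC7, a cytochrome c isoform, had 60.0, 57.3 and 58.2 normalized counts in pab1Δpbp1Δ, against 16.5, 9.91 and 18.1 in pbp1Δ and 4.46, 8.42 and 9.69 in WT, and rose in both comparisons (1.97, SE 0.43, adjusted p = 4.85e-05 against pbp1Δ). COX5B, a cytochrome c oxidase subunit, also rose against pbp1Δ (1.22, SE 0.35, adjusted p = 0.00263), a call made in 5 of 11 alternatives. The alternatives that lost the COX5B call included leaving out any pab1Δpbp1Δ library or the second pbp1Δ library (highest adjusted p = 0.0317). OLE1, the fatty acid desaturase, fell by 1.60 (SE 0.15, adjusted p = 1.77e-23) and HMG2, an isoform of HMG-CoA reductase, fell by 0.57 (SE 0.14, adjusted p = 0.000577) on the log2 scale against pbp1Δ. The HMG2 call was lost with edgeR (adjusted p = 0.0149) and without the second (0.0166) or the third (0.0117) pbp1Δ library. The 4 calls against pbp1Δ thus lay in both directions. Between pbp1Δ and WT, where ANB1 separated, none of the 10 was called, beside 1.18% of all entries. Their median log2 fold change there was 0.28, or 0.35 without ROX1, and 3 had an unadjusted DESeq2 p below 0.05. In that comparison 5 of the 10 had every pbp1Δ library above every WT library and 0 had the reverse. Of all 5754 entries tested, 665 were separated above and 662 below.

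Cytosolic ribosomal protein genes were counted as a second part of the translation machinery. Of 137, 51 were lower (37.2%) and 0 higher in pab1Δpbp1Δ against pbp1Δ, with a median log2 fold change of -0.52, and 61 were lower (44.5%) and 1 higher against WT, with a median of -0.42. The lower entries stand beside 10.2% and 15.3% of all entries tested. EFB1 and TEF4 at -1.05 and -0.63 against pbp1Δ lay below this median, and HYP2 at -0.42, the eEF2 pair, YEF3, CAM1 and the eEF1A pair lay above it. The entries whose log2 normalized counts ran most like EFB1 over the 9 libraries, out of 3820 with a mean of at least 100, were RME1 (Pearson r = 0.99), RPS28B (0.99), RPS2 (0.98), RPS31 (0.97) and RPL34B (0.96). RME1 encodes a regulator of meiosis and the other 4 encode ribosomal proteins. The first of them, RME1, averaged 196 counts in pab1Δpbp1Δ, against 365 in pbp1Δ and 348 in WT. For ANB1, out of 5290 entries with a mean of at least 10, they were BOS1 (r = 0.86), LIN1 (0.85), LDB18 (0.84), MCP1 (0.83) and LYS9 (0.82). These correlations are descriptions over 9 libraries of 3 strains, in which the points share the strain and the scaling.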

How the data were processed

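The authors digested lysates with RNase I, collected 80S ribosomes, added random nucleotides to both fragment ends, trimmed reads with cutadapt 1.9, aligned them with Bowtie 1.0.0 (build R64 in the labels), removed PCR duplicates with UMI-tools and quantified a transcriptome of spliced and unspliced forms with RSEM 1.3.0. The authors deposited RSEM expected counts (estimated counts, in which a read matching several transcripts is divided) and FPKM values, per isoform and per gene. Isoform counts of TEF1 and TEF2, and of EFT1 and EFT2, were summed, rounded and compared with DESeq2 1.42.0 (R 4.3.3) on the 6 libraries of each pair of strains, without covariates, with independent filtering at 0.01 and a call at an adjusted p-value below 0.01, as in the study's methods. Copies were fitted separately. Intervals on fold changes are Wald intervals of 95%. Shares and ratios were compared with exact permutation tests (scipy 1.17.1).

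The members, gene lists and tests were chosen with earlier results of these data known. The rule for naming genes was every member, DYS1, LIA1, HEF3, each list gene called in a comparison of pab1Δpbp1Δ, the 5 entries most like EFB1 and ANB1, and the deleted genes; MEF1 was named after its value was seen. Symbols came from RefSeq (R64), where 6259 of 6952 entries matched. The fits were tested on simulated counts. No libraries were duplicates, since chi-square per degree of freedom between replicates was 5.98 to 43.7. Within pbp1Δ the first library stood apart, at 35.7 and 32.1 from the second and the third, which differed by 7.34. Within pab1Δpbp1Δ the values were 26.5, 27.3 and 43.7. Alternatives were edgeR 4.0.16, limma 3.58.1 on log2 FPKM, other size factors, filters, tables, thresholds, a replicate block and leaving out each library.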

Additional observations from a re-analysis of the deposited data

How the results depend on the processing

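Against pbp1Δ, 2 units were called, 1 with edgeR, 0 with limma on log2(FPKM + 1) or log2(FPKM + 0.1), 3 with all 9 libraries in the fit (HYP2 added) and 3 at an adjusted p below 0.05. Against WT, 2 were called, 1 with edgeR, with total counts as size factors and with limma on either pseudocount, and 4 at an adjusted p below 0.05. Leaving out each library gave 1 to 2 units against pbp1Δ (1 without the third pbp1Δ library) and 1 to 3 against WT (1 without the second or the third WT library). None was called between pbp1Δ and WT in any alternative, but ANB1 had an adjusted p there in only 12 of 19. EFB1, TEF4, HYP2, the eEF2 pair and EFT1 kept the direction given for pab1Δpbp1Δ under each alternative run on them.

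Values near 0 turned sign. YEF3 against WT was 0.038 with total counts and 0.032 with limma on either pseudocount. When each library was left out, the log2 fold change against pbp1Δ ranged from -0.020 to 0.28 for CAM1, from -0.032 to 0.14 for YEF3 and from -0.021 to 0.14 for DYS1. Against WT, EFT2 in pab1Δpbp1Δ ranged from -0.10 to 0.20, and in pbp1Δ the eEF1A pair ranged from -0.012 to 0.10, EFB1 from -0.18 to 0.14 and TEF4 from -0.0011 to 0.18. The share of all counts in elongation factors differed between pab1Δpbp1Δ and pbp1Δ by -0.11 percentage points when ribosomal proteins were left out of the total, and between pab1Δpbp1Δ and WT by -0.20 to 0.16 when each library was left out.

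Total counts as size factors moved the median over all entries to a log2 fold change of 0.15 against pbp1Δ and 0.17 against WT, from 0.03 and 0.05. Of all entries, 1230 were called against pbp1Δ (591 lower), 1228 with total counts (433 lower), 701 and 728 with limma (171 and 180 lower), 758 without the second and 786 without the third pbp1Δ library. Against WT 1817 were called (897 lower), 1791 with total counts (694 lower) and 1465 with limma (524 lower). Between pbp1Δ and WT the count was 68, with 1 in edgeR (856 at an unadjusted p below 0.05), 1 and 2 with limma, 33 with all 9 libraries, and 18 to 90 with a library left out. The alternatives run on the modification, folding, eEF3-like, mitochondrial and hypoxic genes, ROX1's omission included, were added after seeing the data.

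Replicate numbers do not pair the libraries by the labels. Same-numbered libraries correlated between -0.11 and 0.30 in their deviations, and differently numbered ones between -0.36 and 0.26. Whether libraries of the same number share an effect was not tested. With a replicate block, 3 units were called against pbp1Δ (HYP2 added, adjusted p = 0.00954), 0 between pbp1Δ and WT and 2 against WT; EFT2 was called against pbp1Δ (adjusted p = 0.000189) and DPH3, EFM4 and COX5B were not (adjusted p of 0.0105, 0.0291 and 0.0105). ANB1 and HEF3 had the lowest counts and are most limited by depth.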
